A study of Rattus norvegicus with 18 samples.

Results

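Genes of antigen presentation and of the RT1 complex, the major histocompatibility complex of the rat, were followed in adrenal glands of 3 rat strains at 2 ages. A gene was a member if its array name begins with RT1-, which gave 42 genes, or if it was 1 of 22 named genes of peptide processing, class I assembly, the class II pathway and its regulators. Of those 22, 21 had a probe, and no probe carried the name Nlrc5. The 63 members had 73 of the 30367 probes and were 63 of the 26583 gene names on the array. By role, 33 were class I heavy chains or class I-like genes, 9 class II chains, 6 genes of class I assembly and peptide trimming, 5 of the immunoproteasome and its activator PA28, 6 of the class II pathway and its endosomal enzymes, and 4 class II regulators.

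The groups were SHRSP, SHR and WKY rats aged 6 weeks and SHRSP, SHR and WKY rats aged 3 weeks, with 3 biological replicates each and 1 array per replicate. SHR is the spontaneously hypertensive rat, SHRSP its stroke-prone line, and WKY, the Wistar Kyoto rat, the normotensive strain they are set against. The rats had no treatment, and neither their sex nor the number of rats behind an RNA sample is stated in the labels. All 12 adrenal marker genes that were listed (steroid synthesis and chromaffin cell genes) were well above background on all 18 arrays. The share of spots well above background was 77.8% to 84.8% per array, and none was saturated. The replicate 2 array of SHR at 3 weeks stood apart in 7 liver and kidney marker genes, whose mean level was -0.23 there. It was -2.59 on replicate 3 and -4.23 on replicate 1 of that group, and -5.17 to -3.11 on the arrays of the other groups. In such bulk RNA, fewer cells of a type and less RNA per cell cannot be told apart.

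A level below is the log2 processed signal of a probe minus the 75th percentile of its array, so that 0 stands for a probe as bright as that percentile. Levels of different probes cannot be set against each other. A difference is on the same log2 scale, from 1 limma fit of all 18 arrays with n = 3 per group, and ± marks its standard error. A gene was called higher or lower at a Benjamini-Hochberg adjusted p under 0.05 over all tested genes. Both comparisons with WKY at an age use the same 3 WKY arrays.

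Class I molecules show peptides from inside the cell to cytotoxic T cells. The proteasome cuts the peptides, the TAP transporter carries them into the endoplasmic reticulum, and they are loaded there onto a heavy chain that is paired with beta-2-microglobulin. Class II molecules show peptides taken up from outside to helper T cells, and most of them sit on macrophages, dendritic cells and B cells; in human adrenal glands, class II is also known on cells of the inner cortex. Class II chains are made with the invariant chain, which endosomal proteases cut away before DM helps to load a peptide. Their promoters share an X box, bound by the RFX complex, and a Y box, bound by NF-Y, and the coactivator CIITA is recruited by these factors.

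The promoter windows of the class II genes that the results turn on are printed to show these boxes. They come from RefSeq on GRCr8, whose table held a promoter of 250 bases before to 50 bases after the start site for 51 members. Capitals mark ACNGATG, the end of the X box, and ATTGG, the core of the Y box, each searched on both strands (so that CCAAT also counts), and no match overlapped another motif in the windows shown. On GRCr8 the windows lie at chr20:4515316-4515382 (plus strand) for RT1-Da, chr20:4560226-4560291 (minus) for RT1-Db1, chr20:4604163-4604228 (minus) for RT1-Bb, chr20:4627590-4627653 (minus) for RT1-DOb, chr20:4712383-4712449 (minus) for RT1-DMa, chr20:4576964-4577030 (plus) for RT1-Ba, and chr18:56526967-56527033 (plus) for Cd74.
RT1-Da: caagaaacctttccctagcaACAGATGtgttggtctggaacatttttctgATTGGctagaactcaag
RT1-Db1: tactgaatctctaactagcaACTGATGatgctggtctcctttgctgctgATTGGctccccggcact
RT1-Bb: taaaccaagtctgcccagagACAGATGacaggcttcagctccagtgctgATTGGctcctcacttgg
RT1-DOb: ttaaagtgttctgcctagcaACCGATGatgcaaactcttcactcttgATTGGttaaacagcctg
RT1-DMa: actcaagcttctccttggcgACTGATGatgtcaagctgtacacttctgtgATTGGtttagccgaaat
RT1-Ba: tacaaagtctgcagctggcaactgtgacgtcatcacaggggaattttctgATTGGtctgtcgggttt
Cd74: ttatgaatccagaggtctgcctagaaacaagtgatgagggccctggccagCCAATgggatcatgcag

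The first 5 windows hold both motifs in the same order, with 20 to 23 bases between them, and the Y motif ends 44 to 78 bases before the start site. Those of RT1-Ba and Cd74 hold the Y motif alone, as the RT1-Ha and RT1-DOa promoters also do. A pair of the motifs 15 to 30 bases apart was found for 5 of 8 class II genes with a promoter (62.5%). It was found for 4 of 25 class I and class I-like genes (16%: RT1-CE3, RT1-CE5, RT1-CE10 and RT1-M3-1) and in 0.266% of all 33469 promoters. A member gene counted where any promoter listed for it held the pair, while the share of all promoters counts each promoter. The X motif alone was in 10.2% and the Y motif in 37.5% of all promoters. The motifs were chosen with the sequences in view, and a match is a description of letters and not a bound site.

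Of the 63 members, 57 passed the filter on dim probes and 54 were well above background on all 18 arrays. The 6 left out were RT1-Ba, RT1-DOa, RT1-Ha, RT1-M1-2, RT1-M1-4 and RT1-M10-1. In SHR against WKY, 4 members were higher and 3 lower at 3 weeks, where 9.02% of all tested genes were higher and 9.2% lower. At 6 weeks 20 were higher and 4 lower, with 16.2% and 13% of all genes. In SHRSP against WKY, 9 were higher and 5 lower at 3 weeks (14.8% and 11.4% of all genes), and 8 were higher and 4 lower at 6 weeks (11.1% and 12.8%). In SHRSP against SHR, 0 were higher and 4 lower at 3 weeks (4.73% and 3.21%), and 0 were higher and 7 lower at 6 weeks (6.74% and 8.22%).

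With age (6 over 3 weeks), 14 members were higher and 2 lower in SHRSP (10.5% and 18.4% of all genes), 25 were higher and 2 lower in SHR (15.1% and 14.1%), and 6 were higher and 1 lower in WKY (5.16% and 7.16%). The median member difference with age was 0.17 in SHRSP, 0.32 in SHR and 0.14 in WKY, where the medians of all genes were -0.09, 0.08 and 0.02. In SHR over WKY at 6 weeks the member median was 0.24 against 0.09 for all genes. That comparison had 8 members higher and 4 lower after quantile normalization, and 8 called in all without slide 5. That slide holds 4 arrays of 6 weeks, 2 of them SHR, so fits without it have 1 SHR array of that age, which is assumed to vary like the other groups. A call lost there does not by itself show a smaller difference. Most called members had an estimate nearer 0 in this comparison, as RT1-Db1 did (1.71, and 1.37 without slide 5). Others did not, as the dim RT1-M4 (0.78 and 0.96). Quantile normalization gave 7 and 7 for SHRSP over WKY at 3 weeks and 1 and 3 for SHRSP over SHR at 6 weeks, and background correction by normexp gave 1 and 4 for SHRSP over SHR at 3 weeks. Quantile normalization also shifted the median of all genes from -0.11 to -0.01 in SHRSP over SHR at 6 weeks and from -0.09 to 0.02 in the SHRSP age change. The members called in no pairwise comparison numbered 17, among them Psmb9, Psmb10, Ctsl1, Lgmn, Rfx5, Rfxank and RT1-DMa. With slide as a block, 47 pairwise differences of 23 members were called that are not counted above, and 8 of those 17 members had at least 1, Ctsl1, Lgmn, Rfxank and RT1-DMa included.

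**Figure D1:**
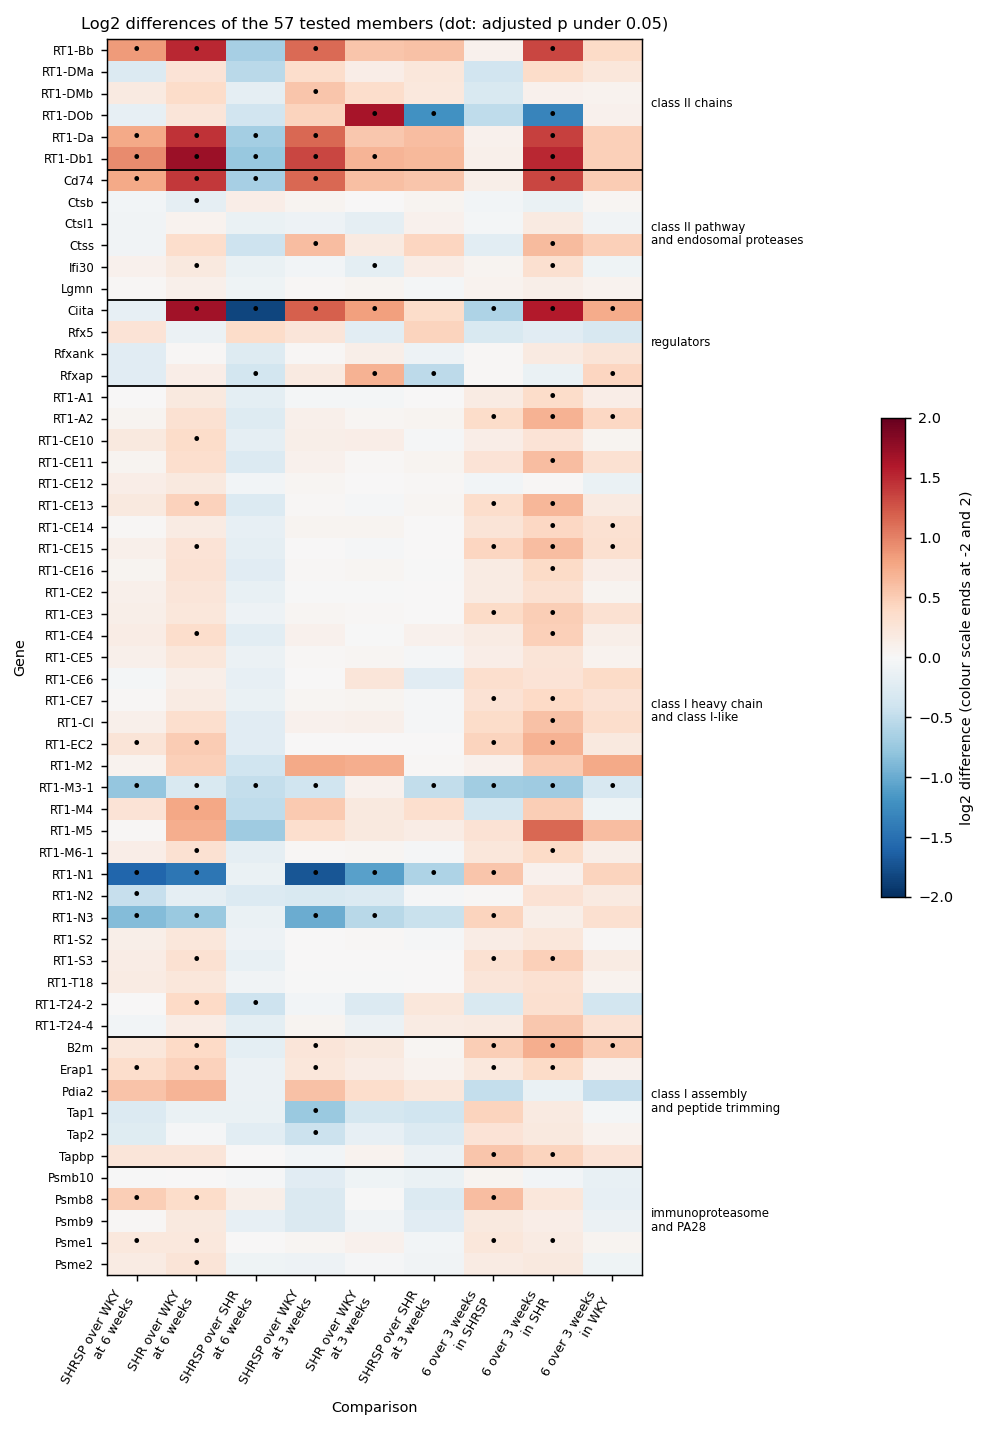
Log2 differences of the 57 tested members (rows, by role) in the 9 pairwise comparisons (columns), on a colour scale that ends at -2 and 2, with a dot where the adjusted p is under 0.05. RT1-Da, RT1-Db1, RT1-Bb and Cd74 are red in the comparisons with WKY and in the SHR age change, RT1-N1 and RT1-N3 are blue in all 4 comparisons with WKY, and RT1-M3-1 is blue in all 3 age changes.

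The class II genes RT1-Da, RT1-Db1, RT1-Bb and the invariant chain Cd74, were higher in SHRSP than in WKY at both ages and in SHR at 6 weeks. At 3 weeks only RT1-Db1 of these passed the test in SHR. In fits of only the groups compared, SHRSP over WKY at 6 weeks was called for none of them. The limma adjusted p there was 0.0546 for RT1-Db1, 0.106 for RT1-Da, 0.126 for RT1-Bb and 0.149 for Cd74. RT1-Db1, a class II beta chain, was the 1 member called higher in all 4 comparisons with WKY, as were 640 genes of the series. Its level at 6 weeks was 0.18, -0.53 and -0.53 in SHRSP, 0.25, 0.41 and 0.73 in SHR and -1.01, -1.5 and -1.23 in WKY. At 3 weeks it was -0.25, -0.40 and -0.53 in SHRSP, -0.91, -1.27 and -0.94 in SHR and -1.82, -1.66 and -1.68 in WKY. The 3 strains did not overlap at either age: the order was SHRSP, SHR, WKY at 3 weeks, and SHR, SHRSP, WKY at 6 weeks.

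RT1-Db1 was 2.51-fold higher in SHRSP than in WKY at 3 weeks (1.33 ± 0.19, limma adjusted p = 0.00017) and 1.6-fold higher in SHR (0.68 ± 0.19, adjusted p = 0.0224). The SHR call was lost in 5 of 6 fits that left out 1 array (highest adjusted p = 0.0824). At 6 weeks it was 1.94-fold higher in SHRSP (0.95 ± 0.19, adjusted p = 0.00205) and 3.27-fold higher in SHR (1.71 ± 0.19, adjusted p = 1.93e-05). Within slides the SHRSP difference was 1.14 to 1.57 at 3 weeks and 0.98 at 6 weeks, and the SHR difference 0.39 to 0.91 and 2.07. Its second probe gave 1.17 and 0.69 for SHRSP over WKY at 3 and 6 weeks and 1.41 for SHR over WKY at 6 weeks, all called, and did not call the SHR difference at 3 weeks.

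RT1-Da, a class II alpha chain, had levels of 0.75, -0.01 and -0.03 in SHRSP, 0.73, 0.91 and 1.1 in SHR and -0.29, -0.72 and -0.55 in WKY at 6 weeks. The 3-week levels were 0.39, 0.08 and -0.01 in SHRSP, -0.35, -0.55 and -0.45 in SHR and -1.11, -0.91 and -0.96 in WKY. Both hypertensive strains lay above WKY at both ages with no overlap. The difference from WKY was 1.15 ± 0.19 for SHRSP (adjusted p = 0.000453) and 0.54 ± 0.19 for SHR (adjusted p = 0.0597) at 3 weeks. At 6 weeks it was 0.76 ± 0.19 for SHRSP (adjusted p = 0.00834) and 1.44 ± 0.19 for SHR (adjusted p = 6.84e-05).

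RT1-Bb, the beta chain of the other class II molecule measured here, followed the same order. Its level at 6 weeks was 0.53, -0.25 and -0.42 in SHRSP, 0.45, 0.62 and 0.80 in SHR and -0.65, -1.28 and -0.76 in WKY. At 3 weeks it was 0.04, -0.20 and -0.22 in SHRSP, -0.73, -0.83 and -0.57 in SHR and -1.46, -1.17 and -1.18 in WKY. SHRSP differed from WKY by 1.14 ± 0.22 at 3 weeks (adjusted p = 0.0013) and by 0.85 ± 0.22 at 6 weeks (adjusted p = 0.00979). SHR differed from WKY by 0.56 ± 0.22 (adjusted p = 0.091) and by 1.51 ± 0.22 (adjusted p = 0.000143). Its partner chain RT1-Ba was well above background on 3 of 18 arrays and was not tested.

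Cd74, the invariant chain that escorts class II molecules, moved with the chains. It had levels of 2.02, 1.34 and 1.28 in SHRSP, 2.13, 2.11 and 2.36 in SHR and 1.13, 0.32 and 0.90 in WKY at 6 weeks. At 3 weeks they were 1.57, 1.36 and 1.34 in SHRSP, 0.95, 0.72 and 0.97 in SHR and 0.18, 0.34 and 0.30 in WKY. The strains did not overlap at either age, and the replicate 2 array of WKY at 6 weeks was the low one and the replicate 1 array of SHRSP at 6 weeks the high one of their groups. SHRSP was 2.22-fold higher than WKY at 3 weeks (1.15 ± 0.20, adjusted p = 0.000742) and 1.7-fold higher at 6 weeks (0.76 ± 0.20, adjusted p = 0.0123). The second of these calls was lost without replicate 1 of SHRSP (0.53, adjusted p = 0.0641) or replicate 2 of WKY (0.53, adjusted p = 0.0578). SHR was at 0.60 ± 0.20 from WKY at 3 weeks (adjusted p = 0.0519, and 0.0321 with slide as a block) and was 2.67-fold higher at 6 weeks (1.42 ± 0.20, adjusted p = 0.000143).

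**Figure D2:**
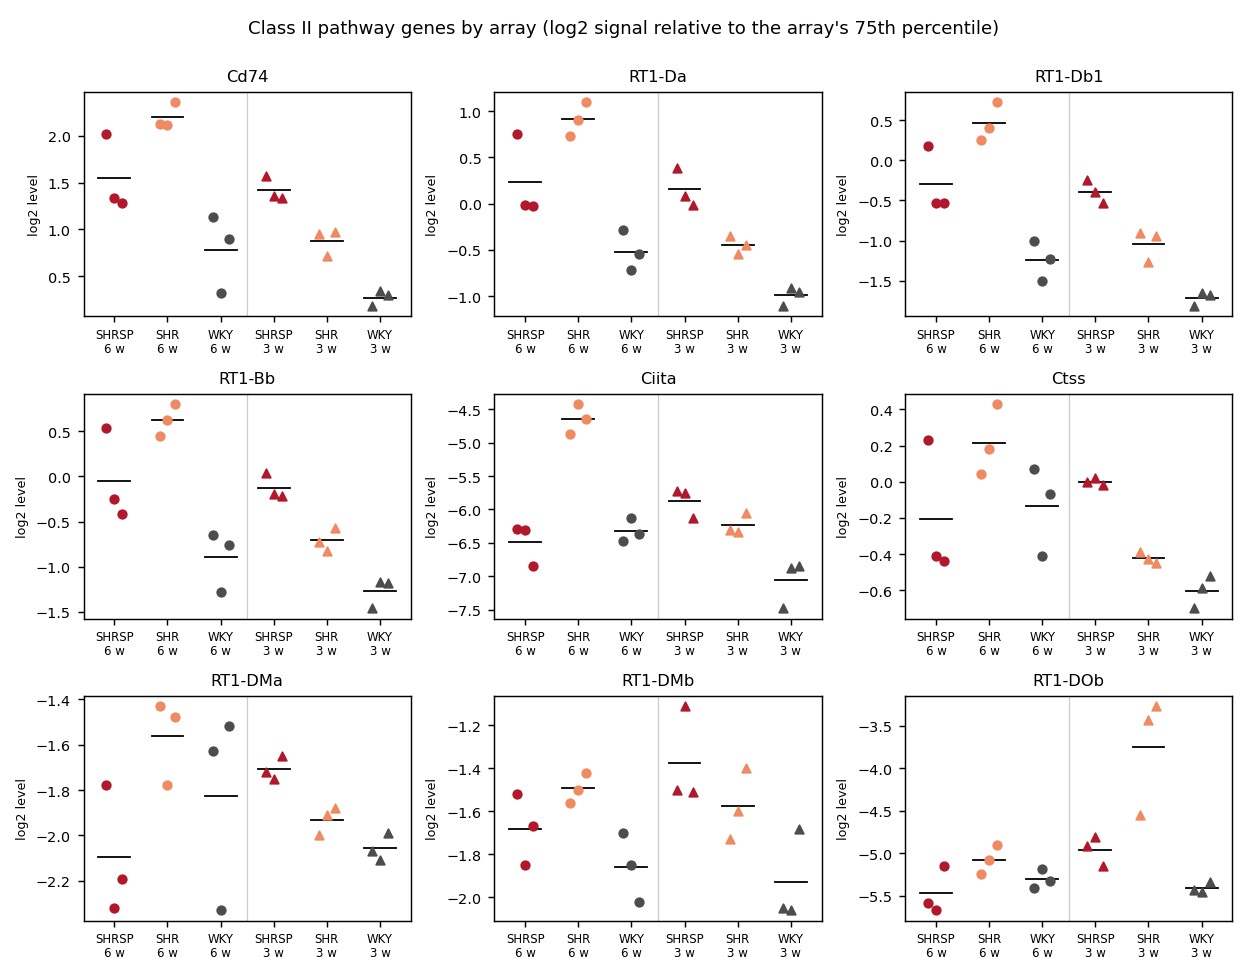
Levels of 9 class II pathway genes (log2 signal minus the array's 75th percentile), 1 point per array, with circles at 6 weeks, triangles at 3 weeks and a line at the group mean of 3 arrays. For Cd74, RT1-Da, RT1-Db1 and RT1-Bb the WKY points lie lowest at both ages, SHRSP is highest at 3 weeks and SHR has the highest mean at 6 weeks.

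The chains of DM and DO were called in fewer comparisons. RT1-DMb, a chain of the DM loading factor, was called higher in SHRSP than in WKY at 3 weeks (0.56 ± 0.14, adjusted p = 0.00869) and in no other pairwise comparison. RT1-DMa, its partner, was called in none, but with slide as a block it was higher in SHRSP than in WKY at 3 weeks (0.44, adjusted p = 0.0378), higher in SHR than in WKY at 6 weeks (0.43, adjusted p = 0.0437), lower in SHRSP than in SHR at 6 weeks (-0.58, adjusted p = 0.0187) and higher with age in SHR (0.67, adjusted p = 0.011). RT1-DOb, a chain of DO, which holds DM back, was high in SHR at 3 weeks alone, at -4.55, -3.44 and -3.27, against -4.92, -4.81 and -5.15 in SHRSP and -5.43, -5.45 and -5.34 in WKY. At 6 weeks its levels were -5.58, -5.67 and -5.15 in SHRSP, -5.24, -5.08 and -4.90 in SHR and -5.41, -5.19 and -5.32 in WKY. It was 3.14-fold higher in SHR than in WKY at 3 weeks (1.65 ± 0.25, adjusted p = 0.000383), 1.41 to 2.05 with any 1 array left out. In those SHR arrays the mean level of the 7 liver and kidney markers was -4.23, -0.23 and -2.59. The array with the lowest RT1-DOb was also the lowest in these markers, but the array highest in them was not the highest in RT1-DOb. The part of these markers in the result was not tested.

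Between SHRSP and SHR at 3 weeks, RT1-DOb was lower in SHRSP (-1.21 ± 0.25, adjusted p = 0.00821). That call was lost in a fit of only the groups compared (limma adjusted p = 0.11). The 4 genes described first were not called, with differences of 0.65 ± 0.19 for RT1-Db1 (adjusted p = 0.0518), 0.61 ± 0.19 for RT1-Da (adjusted p = 0.0647), 0.55 ± 0.20 for Cd74 (adjusted p = 0.119) and 0.58 ± 0.22 for RT1-Bb (adjusted p = 0.122). At 6 weeks SHRSP was lower in RT1-Db1 (-0.76 ± 0.19, adjusted p = 0.0148), RT1-Da (-0.68 ± 0.19, adjusted p = 0.0244) and Cd74 (-0.66 ± 0.20, adjusted p = 0.0415). RT1-Bb was at -0.67 ± 0.22 (adjusted p = 0.0511). The replicate 1 array of SHRSP lay inside the SHR range for RT1-Da and RT1-Bb. Within the 2 slides that hold both groups the difference of RT1-Db1 was -1.1 and -0.07, and that of RT1-Da -1.04 and 0.02. Without slide 5, which leaves 1 SHR array at 6 weeks, RT1-Db1 was at -0.43 (adjusted p = 0.37), RT1-Da at -0.36 (adjusted p = 0.489) and Cd74 at -0.45 (adjusted p = 0.292). Each of the 3 calls was also lost in 3 to 5 of 6 fits that left out 1 array, and that of RT1-Da with slide as a block (-0.64, adjusted p = 0.0511).

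RT1-Db1, RT1-Da, Cd74 and RT1-Bb rose with age in SHR and were not called in SHRSP or WKY. In SHR, 6 over 3 weeks was 1.5 ± 0.19 for RT1-Db1 (adjusted p = 6.67e-05), 1.37 ± 0.19 for RT1-Da (adjusted p = 0.000128), 1.33 ± 0.20 for Cd74 (adjusted p = 0.000288) and 1.33 ± 0.22 for RT1-Bb (adjusted p = 0.000469). In SHRSP the same 4 genes were at 0.10, 0.08, 0.12 and 0.08 (adjusted p of at least 0.717). In WKY they were at 0.47, 0.47, 0.51 and 0.38 (lowest adjusted p = 0.119). With slide as a block, Cd74 was called in WKY (0.62, adjusted p = 0.0458). The age change of SHRSP was lower than that of SHR in each of the 4, by -1.40 ± 0.27 for RT1-Db1 (adjusted p = 0.00396) and by -1.21 ± 0.28 for Cd74 (adjusted p = 0.0138). Without slide 5 these were -1.07 (adjusted p = 0.0663) and -1 (adjusted p = 0.0626). Of all members, 0 had a higher and 7 a lower age change in SHRSP than in SHR, where 4.45% and 7.48% of all genes did (2 and 5 after quantile normalization). For SHRSP against WKY the counts were 1 and 2 (3.73% and 6.36% of all genes; 1 and 1 after quantile normalization), and for SHR against WKY 4 and 2 (3.4% and 2.41%; 0 and 2). RT1-DOb went the other way in SHR, where it fell by 1.32 ± 0.25 on the log2 scale (adjusted p = 0.00143).

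Ciita, the coactivator that turns on class II promoters, was dim but measured, well above background on 17 of 18 arrays. Its level at 6 weeks was -6.29, -6.30 and -6.85 in SHRSP, -4.87, -4.42 and -4.64 in SHR and -6.47, -6.13 and -6.36 in WKY. At 3 weeks it was -5.73, -5.76 and -6.13 in SHRSP, -6.31, -6.34 and -6.06 in SHR and -7.48, -6.87 and -6.84 in WKY. The SHR arrays at 6 weeks lay above all other arrays, and SHRSP and WKY overlapped at that age. At 3 weeks Ciita was 2.28-fold higher in SHRSP than in WKY (1.19 ± 0.20, adjusted p = 0.000506) and 1.77-fold higher in SHR (0.82 ± 0.20, adjusted p = 0.00908). At 6 weeks it was at -0.16 ± 0.20 in SHRSP (adjusted p = 0.647) and was 3.2-fold higher in SHR (1.68 ± 0.20, adjusted p = 3.01e-05).

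In SHRSP at 6 weeks RT1-Da, RT1-Db1 and RT1-Bb were thus called higher than in WKY and Ciita was not. Those calls of the chains were not kept in fits of only the groups compared. With age Ciita rose by 1.59 ± 0.20 in SHR (adjusted p = 5.53e-05) and by 0.74 ± 0.20 in WKY (adjusted p = 0.0243), and fell by 0.61 ± 0.20 in SHRSP (adjusted p = 0.0322). The fall in SHRSP was -0.40 after quantile normalization (adjusted p = 0.164), -0.42 without slide 5 (adjusted p = 0.123) and -0.68 with slide as a block (adjusted p = 0.0506). The rise in WKY was 0.54 without replicate 1 of 3 weeks (adjusted p = 0.111) and 0.65 without slide 5 (adjusted p = 0.0606). At 6 weeks SHRSP was 3.57-fold lower than SHR (-1.84 ± 0.20, adjusted p = 3.48e-05), with -2.32 and -1.42 within slides and -1.43 without slide 5 (adjusted p = 0.0135).

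Of the RFX subunits that bind the X box, Rfx5 and Rfxank were called in no pairwise comparison, and Rfxap was. With slide as a block Rfxank was called in 4, at -0.34 for SHRSP over SHR at 6 weeks (adjusted p = 0.0102), -0.26 for SHRSP over WKY at 6 weeks (adjusted p = 0.0275), and 0.28 and 0.32 for the age changes in SHR (adjusted p = 0.0271) and WKY (adjusted p = 0.0147). The level of Rfxap at 3 weeks was -1.44, -1.45 and -1.12 in SHRSP, -0.69, -0.71 and -1.03 in SHR and -1.52, -1.51 and -1.53 in WKY. SHR lay above both other strains, by 0.70 ± 0.11 over WKY (adjusted p = 0.000421), and SHRSP over SHR was -0.52 ± 0.11 (adjusted p = 0.00802). The second of these calls was lost in a fit of only the groups compared (limma adjusted p = 0.0986). At 6 weeks Rfxap was lower in SHRSP than in SHR (-0.37 ± 0.11, adjusted p = 0.0303), a call lost after quantile normalization (adjusted p = 0.0881), with slide as a block (-0.30, adjusted p = 0.0964) and without slide 5 (adjusted p = 0.38).

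**Figure D3:**
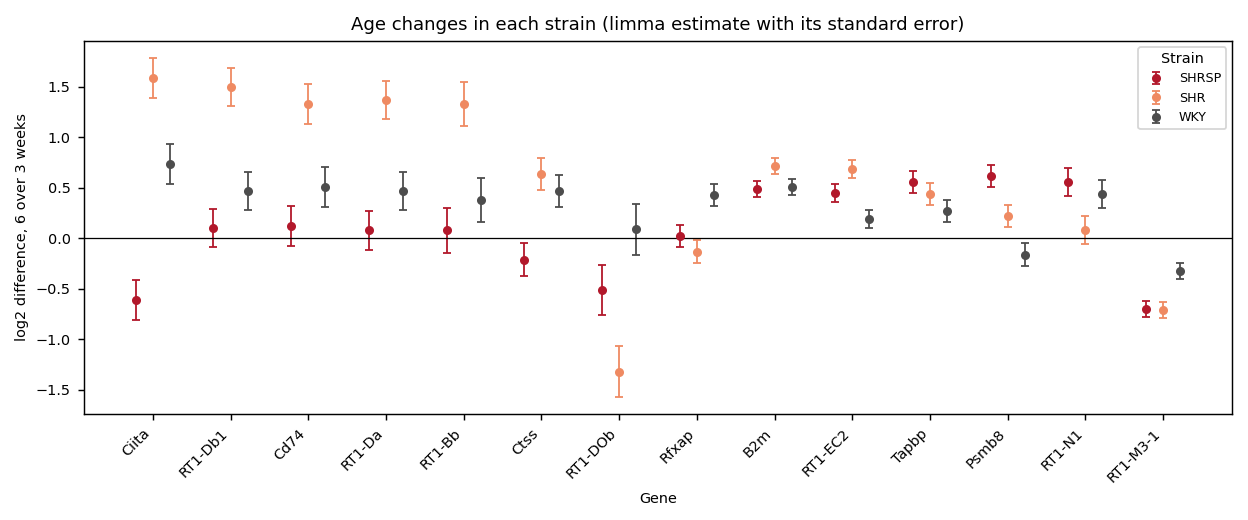
Log2 difference of 6 over 3 weeks in each strain for 14 members, as the limma estimate with its standard error as a bar (n = 3 arrays per group). SHR lies highest for Ciita, RT1-Db1, Cd74, RT1-Da and RT1-Bb, where the SHRSP estimates lie near 0 or, for Ciita, at -0.61, and RT1-M3-1 lies below 0 in all 3 strains.

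Of the enzymes of the class II pathway, Ctss, cathepsin S, which trims the invariant chain, was called in 2 pairwise comparisons. At 6 weeks its levels were 0.23, -0.41 and -0.44 in SHRSP, 0.04, 0.18 and 0.43 in SHR and 0.07, -0.41 and -0.07 in WKY. The 3-week levels were 0.00, 0.02 and -0.02 in SHRSP, -0.39, -0.43 and -0.45 in SHR and -0.70, -0.59 and -0.52 in WKY, with no overlap among the strains. It was higher in SHRSP than in WKY at 3 weeks (0.61 ± 0.16, adjusted p = 0.0129) and at 6 than at 3 weeks in SHR (0.64 ± 0.16, adjusted p = 0.0094). The first call was lost without replicate 1 of WKY (0.56, adjusted p = 0.0509) and the second without slide 5 (0.47, adjusted p = 0.118). Ifi30, the thiol reductase GILT of the endosome, was called lower in SHR than in WKY at 3 weeks (-0.20 ± 0.06, adjusted p = 0.0438). That call was lost with the replicate number as a block (adjusted p = 0.0558) and in each fit that left out 1 array. At 6 weeks Ifi30 was called higher in SHR than in WKY (0.20 ± 0.06, adjusted p = 0.0266), a call lost after quantile normalization (0.04, adjusted p = 0.733) and without slide 5 (0.24, adjusted p = 0.115). It rose with age in SHR (0.32 ± 0.06, adjusted p = 0.00179), a call also lost after quantile normalization (0.16, adjusted p = 0.0963). Ctsb was called lower in SHR than in WKY at 6 weeks (-0.18 ± 0.06, adjusted p = 0.0408), a call lost with slide as a block (-0.13, adjusted p = 0.1) and in 4 of 6 fits that left out 1 array, and it was at -0.42 after quantile normalization. Ctsl1 and Lgmn were called in no pairwise comparison, but rose with age in SHR with slide as a block (0.34 and 0.32, adjusted p = 0.0142 and 0.0181).

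Of 18 listed macrophage markers 16 were tested, and 6 were higher and 0 lower in SHRSP over WKY at 3 weeks (14.8% and 11.4% of all genes). The 6 include Cd163 (0.99 ± 0.23, adjusted p = 0.00472), Lyz2 (0.69 ± 0.15, adjusted p = 0.00353) and Cd68 (0.65 ± 0.14, adjusted p = 0.00311). The mean level of the list was -1.06 to -0.91 in SHRSP, -1.21 to -1.15 in SHR and -1.37 to -1.23 in WKY at 3 weeks, in the order of the class II genes. At 6 weeks it was -0.80, -1.11 and -1.24 in SHRSP, -1.04, -1.1 and -0.86 in SHR and -0.88, -1.39 and -1.16 in WKY, and the strains overlapped. In each 6-week group the array with the highest Cd74 level was also the highest in this list. At 3 weeks this was not so in any group. In SHR over WKY at 6 weeks, 3 of the 16 were higher and 1 lower (16.2% and 13% of all genes). With age in SHR, 4 were higher and 2 lower (15.1% and 14.1%).

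Markers of other cells that carry class II were dim. Of the dendritic cell list 5 of 10 genes were tested, and Cd209a, Clec9a and Xcr1 did not pass the filter. Its mean level was -5.89 to -5.54 in SHRSP, -5.82 to -4.98 in SHR and -6.03 to -5.48 in WKY at 6 weeks, and -5.74 to -5.57, -6.08 to -5.42 and -6.21 to -5.94 in the same strains at 3 weeks. Of the B cell list 3 of 8 genes were tested, Ms4a1, Cr2 and Blk did not pass, and 0 were called higher in SHR or SHRSP than in WKY at either age (9.02% to 16.2% of all genes). In SHR 1 was lower than in WKY at 3 weeks and 2 at 6 weeks (9.2% and 13% of all genes). In SHRSP 0 were lower at either age (11.4% and 12.8%). The mean level of the B cell list was -6.16 to -5.99 in SHRSP, -6.67 to -6.13 in SHR and -5.65 to -5.29 in WKY at 6 weeks. Of the T cell list 8 of 11 genes were tested. Against WKY, 2 were higher and 0 lower in SHRSP at 3 weeks (14.8% and 11.4% of all genes), and 0 and 3 at 6 weeks (11.1% and 12.8%). In SHR against WKY they were 0 and 1 at 3 weeks (9.02% and 9.2%), and 1 and 2 at 6 weeks (16.2% and 13%). With age in SHR, 3 were higher and 0 lower (15.1% and 14.1%). The part of macrophages and of these cells in the class II differences was not tested.

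The 12 adrenal marker genes and 7 tested adipose marker genes (of 8 listed) also differed between groups in which class II genes did. Of the adrenal genes, 9 were higher and 0 lower in SHRSP than in WKY at 3 weeks (median 0.6, with 14.8% and 11.4% of all genes), and 8 and 0 at 6 weeks (median 0.62, with 11.1% and 12.8%). In SHR against WKY, 3 were higher and 0 lower at 3 weeks (9.02% and 9.2% of all genes), and 9 and 0 at 6 weeks (median 0.76, with 16.2% and 13%). Their mean level was 4.21 to 4.4 in SHRSP, 4.32 to 4.45 in SHR and 3.71 to 3.84 in WKY at 6 weeks, and 4.5 to 4.6, 4.27 to 4.3 and 4.03 to 4.06 in the same strains at 3 weeks. With age in SHR, 1 adrenal gene was higher and 1 lower (15.1% and 14.1% of all genes).

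Of the adipose genes, 0 were higher and 2 lower in SHR than in WKY at 6 weeks (median -0.44, with 16.2% and 13% of all genes), and 0 and 4 with age in SHR (median -1.19, with 15.1% and 14.1%). Their mean level was 0.85 to 1.45 in SHRSP, -0.23 to 1.23 in SHR and 1.12 to 2.17 in WKY at 6 weeks, and 1.46 to 2.14, 1.54 to 2.39 and 1.1 to 1.93 in the same strains at 3 weeks. In SHRSP and SHR over WKY at 3 weeks and in SHRSP over WKY at 6 weeks, 0 were called, where the shares of all genes are those given with the adrenal genes. The part of adrenal and adipose cells in the class II differences was not tested.

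Among 24 other genes of the pathway that were listed, 22 were tested. Of these, 3 were higher and 3 lower in SHRSP over WKY at 3 weeks (14.8% and 11.4% of all genes), and 5 and 1 in SHR over WKY at 6 weeks (16.2% and 13%). In SHRSP at 6 weeks 1 was higher and 4 lower over WKY (11.1% and 12.8%), and likewise over SHR (6.74% and 8.22%). Irf8, a transcription factor of myeloid and B cells, had levels of -6.59, -6.53 and -6.49 in SHRSP, -5.85, -5.42 and -5.64 in SHR and -5.86, -5.73 and -5.85 in WKY at 6 weeks. At 3 weeks they were -4.98, -4.73 and -4.97 in SHRSP, -4.90, -5.07 and -5.16 in SHR and -5.55, -5.44 and -5.38 in WKY. Like Ciita, it was higher in SHRSP than in WKY at 3 weeks (0.56 ± 0.11, adjusted p = 0.00162) and lower in SHRSP than in SHR at 6 weeks (-0.90 ± 0.11, adjusted p = 9.33e-05). It fell by 1.64 ± 0.11 with age in SHRSP (adjusted p = 2.17e-07). Unlike those of Ciita, the Irf8 levels in SHR were lower at 6 than at 3 weeks. At 6 weeks they also overlapped between SHR and WKY, and all SHRSP arrays lay below all WKY arrays.

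Among the class I heavy chain and class I-like genes, RT1-N1 and RT1-N3 were lower in both hypertensive strains than in WKY at both ages, as were 590 genes of the series. RT1-N1 had levels of -3.20, -3.45 and -3.50 in SHRSP, -3.36, -3.03 and -3.34 in SHR and -1.77, -1.67 and -1.94 in WKY at 6 weeks. The 3-week levels were -3.63, -3.93 and -4.28 in SHRSP, -3.30, -3.32 and -3.35 in SHR and -2.30, -2.14 and -2.26 in WKY. No SHRSP or SHR array reached the WKY range. SHRSP was 3.27-fold lower than WKY at 3 weeks (-1.71 ± 0.14, adjusted p = 1.91e-06) and 3.01-fold lower at 6 weeks (-1.59 ± 0.14, adjusted p = 2.55e-06), and SHR 2.13-fold lower (-1.09 ± 0.14, adjusted p = 0.000129) and 2.73-fold lower (-1.45 ± 0.14, adjusted p = 7.8e-06).

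RT1-N3 differed from WKY in the same direction by less. It was at -1.0 ± 0.14 in SHRSP (adjusted p = 0.000159) and -0.55 ± 0.14 in SHR (adjusted p = 0.0139) at 3 weeks, and at -0.87 ± 0.14 in SHRSP (adjusted p = 0.000428) and -0.75 ± 0.14 in SHR (adjusted p = 0.00131) at 6 weeks. The last of these was no longer called without slide 5 (-0.71, adjusted p = 0.0579), nor the SHR call at 3 weeks without replicate 2 of WKY (-0.50, adjusted p = 0.0624). Both genes rose with age in SHRSP, RT1-N1 by 0.56 ± 0.14 (adjusted p = 0.00927) and RT1-N3 by 0.45 ± 0.14 (adjusted p = 0.0297). The RT1-N3 rise was lost without replicate 3 of 3 weeks (0.26, adjusted p = 0.141) or replicate 1 of 6 weeks (0.33, adjusted p = 0.126), and with slide as a block (0.37, adjusted p = 0.0847). RT1-N2 was called lower in SHRSP than in WKY at 6 weeks alone (-0.46 ± 0.16, adjusted p = 0.0481), a call lost in 4 of 6 fits that left out 1 array. With slide as a block it was called lower in all 4 comparisons with WKY, by -0.38 in SHRSP (adjusted p = 0.00703) and -0.28 in SHR (adjusted p = 0.0257) at 3 weeks, and by -0.48 (adjusted p = 0.00348) and -0.28 (adjusted p = 0.038) at 6 weeks.

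The probes of RT1-N1 and RT1-N3 share 51 of 58 aligned bases, so their signals may not be independent. The alleles of the 3 strains under the probes were not used here, and the part of sequence differences between strains in any RT1 difference was not tested.

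RT1-M3-1, the counterpart of mouse H2-M3, which presents formylated peptides, was the member that fell with age in all 3 strains. Its level at 6 weeks was -0.57, -0.45 and -0.72 in SHRSP, -0.21, -0.02 and -0.07 in SHR and 0.23, 0.16 and 0.22 in WKY. At 3 weeks it was 0.21, 0.06 and 0.09 in SHRSP, 0.62, 0.62 and 0.58 in SHR and 0.48, 0.52 and 0.56 in WKY. It fell by 0.70 ± 0.08 in SHRSP (adjusted p = 1.75e-05), by 0.71 ± 0.08 in SHR (adjusted p = 2.15e-05) and by 0.32 ± 0.08 in WKY (adjusted p = 0.0169). The WKY call was lost in 3 of 6 fits that left out 1 array (highest adjusted p = 0.0716) and with only the groups compared (adjusted p = 0.0775). SHRSP lay below WKY at 3 weeks (-0.40 ± 0.08, adjusted p = 0.00162) and at 6 weeks (-0.78 ± 0.08, adjusted p = 5.89e-06), and below SHR at both ages (-0.49 ± 0.08, adjusted p = 0.00143, and -0.48 ± 0.08, adjusted p = 0.000867). The last of these was not called without slide 5 (-0.30, adjusted p = 0.0906). SHR was lower than WKY at 6 weeks (-0.30 ± 0.08, adjusted p = 0.00901) and at 0.09 ± 0.08 at 3 weeks (adjusted p = 0.504).

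**Figure D4:**
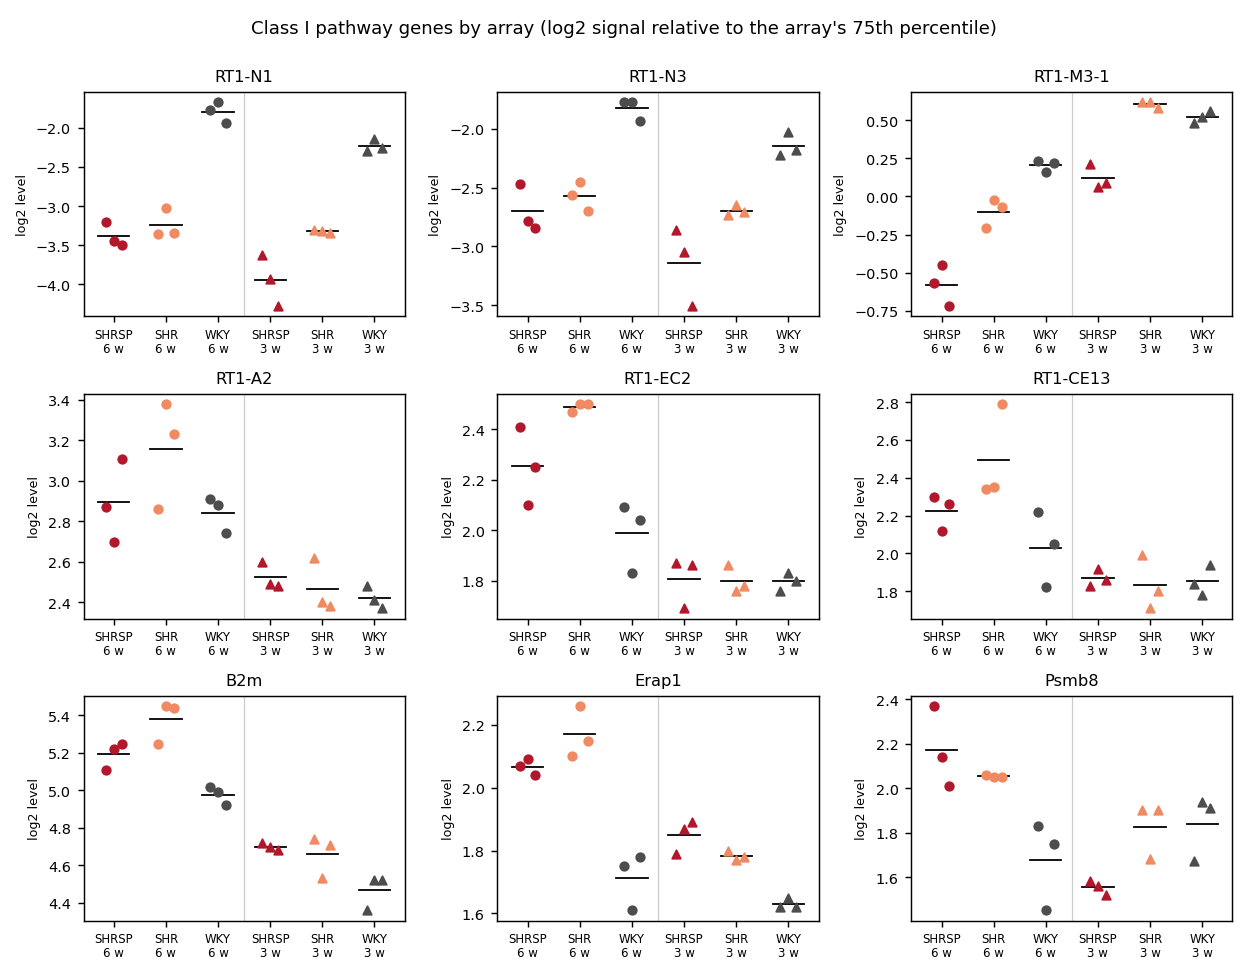
Levels of 9 class I pathway genes (log2 signal minus the array's 75th percentile), 1 point per array, with circles at 6 weeks, triangles at 3 weeks and a line at the group mean of 3 arrays. WKY points lie highest for RT1-N1 and RT1-N3 at both ages, and B2m is higher at 6 than at 3 weeks in each strain.

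Of the 30 tested class I heavy chain and class I-like genes, RT1-N1, RT1-N3 and RT1-M3-1 included, 9 were higher and 1 lower at 6 weeks in SHRSP (median 0.24), 14 and 1 in SHR (median 0.40), and 3 and 1 in WKY (median 0.18), the lower one being RT1-M3-1 each time. Among all genes the shares higher and lower were 10.5% and 18.4% in SHRSP, 15.1% and 14.1% in SHR, and 5.16% and 7.16% in WKY. Without those 3 genes, 7, 14 and 3 of 27 were higher in SHRSP, SHR and WKY and 0 lower. RT1-A2, a classical class I gene, had levels of 2.87, 2.70 and 3.11 in SHRSP, 2.86, 3.38 and 3.23 in SHR and 2.91, 2.88 and 2.74 in WKY at 6 weeks. At 3 weeks they were 2.60, 2.49 and 2.48 in SHRSP, 2.62, 2.40 and 2.38 in SHR and 2.48, 2.41 and 2.37 in WKY. Each strain was higher at 6 weeks with no overlap of the ages, by 0.37 ± 0.13 in SHRSP (adjusted p = 0.0428), 0.69 ± 0.13 in SHR (adjusted p = 0.00129) and 0.42 ± 0.13 in WKY (adjusted p = 0.0462). The SHRSP call was lost in 5 and the WKY call in 6 of 6 fits that left out 1 array, and the SHR call without slide 5 (0.39, adjusted p = 0.054). RT1-EC2 rose by 0.45 ± 0.09 in SHRSP (adjusted p = 0.0017) and 0.69 ± 0.09 in SHR (adjusted p = 7.78e-05), and was at 0.19 ± 0.09 in WKY (adjusted p = 0.186, and 0.0481 with slide as a block).

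Between strains, 9 of the 30 were higher in SHR than in WKY at 6 weeks and 3 were lower (16.2% and 13% of all genes), the lower ones being RT1-N1, RT1-N3 and RT1-M3-1. RT1-EC2 had levels of 2.47, 2.5 and 2.5 in SHR and 2.09, 1.83 and 2.04 in WKY, with no overlap, and was higher by 0.50 ± 0.09 (adjusted p = 0.000819). RT1-M4 was at 0.78 ± 0.20 (adjusted p = 0.00878). It was dim, though well above background on all 18 arrays, with levels of -6.12, -6.30 and -6.01 in SHR and -7.18, -6.63 and -6.98 in WKY. RT1-CE13 was at 0.46 ± 0.13 (adjusted p = 0.0132). Without slide 5 these were not called, at 0.40 for RT1-EC2 (adjusted p = 0.0627), 0.96 for RT1-M4 (adjusted p = 0.0614) and 0.21 for RT1-CE13 (adjusted p = 0.346). At 3 weeks 0 of the 30 were higher and 2 lower in SHR than in WKY (9.02% and 9.2% of all genes).

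B2m, beta-2-microglobulin, the light chain of every class I molecule, rose with age in each strain. Its level at 6 weeks was 5.11, 5.22 and 5.25 in SHRSP, 5.25, 5.45 and 5.44 in SHR and 5.02, 4.99 and 4.92 in WKY. At 3 weeks it was 4.72, 4.70 and 4.68 in SHRSP, 4.74, 4.53 and 4.71 in SHR and 4.36, 4.52 and 4.52 in WKY. All 9 arrays at 6 weeks lay above all 9 at 3 weeks. The rise was 0.49 ± 0.08 in SHRSP (adjusted p = 0.000449), 0.72 ± 0.08 in SHR (adjusted p = 2.67e-05) and 0.51 ± 0.08 in WKY (adjusted p = 0.00102). B2m was higher in SHR than in WKY at 6 weeks (0.40 ± 0.08, adjusted p = 0.00197), a call lost after quantile normalization (0.16, adjusted p = 0.234) and without slide 5 (0.27, adjusted p = 0.138). It was called higher in SHRSP than in WKY at 3 weeks (0.24 ± 0.08, adjusted p = 0.0439), a call lost in each fit that left out 1 array and with slide as a block (adjusted p = 0.0732). SHRSP over WKY at 6 weeks was 0.22 ± 0.08 (adjusted p = 0.0687, and 0.0495 with slide as a block).

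The TAP transporter genes were lower in SHRSP than in WKY at 3 weeks. Tap1 had levels of -3.98, -4.06 and -4.28 in SHRSP and -3.66, -3.19 and -3.23 in WKY, with no overlap (-0.75 ± 0.17, adjusted p = 0.00515). Tap2 was at -0.12, -0.43 and -0.19 in SHRSP and -0.01, 0.29 and 0.27 in WKY (-0.43 ± 0.12, adjusted p = 0.0129), a call lost in 3 of 6 fits that left out 1 array. At 6 weeks they were at -0.27 ± 0.17 (adjusted p = 0.315) and -0.24 ± 0.12 (adjusted p = 0.168), and neither was called in another pairwise comparison. Tapbp, tapasin, which bridges TAP and the heavy chain, rose with age in SHRSP (0.56 ± 0.11, adjusted p = 0.00171) and SHR (0.44 ± 0.11, adjusted p = 0.00857) and was at 0.27 ± 0.11 in WKY (adjusted p = 0.133). With slide as a block Tapbp was called in WKY (0.37, adjusted p = 0.0118) and higher than WKY at 6 weeks in SHRSP (0.26, adjusted p = 0.0405) and SHR (0.32, adjusted p = 0.0141). Pdia2, a protein disulfide isomerase, was well above background on 11 of 18 arrays, 0 of them WKY, and was called in no comparison.

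Erap1, the aminopeptidase that trims class I peptides in the endoplasmic reticulum, had levels of 2.07, 2.09 and 2.04 in SHRSP, 2.10, 2.26 and 2.15 in SHR and 1.75, 1.61 and 1.78 in WKY at 6 weeks. The 3-week levels were 1.79, 1.87 and 1.89 in SHRSP, 1.80, 1.77 and 1.78 in SHR and 1.62, 1.65 and 1.62 in WKY. Neither hypertensive strain overlapped WKY at either age. At 6 weeks it was higher than WKY by 0.35 ± 0.07 in SHRSP (adjusted p = 0.0012) and by 0.46 ± 0.07 in SHR (adjusted p = 0.000149). At 3 weeks the difference was 0.22 ± 0.07 for SHRSP (adjusted p = 0.0223), lost after quantile normalization (adjusted p = 0.125) and in 5 of 6 fits that left out 1 array, and 0.15 ± 0.07 for SHR (adjusted p = 0.145).

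Of the immunoproteasome subunits, which replace standard catalytic subunits in immune cells and after interferon, Psmb8 was called and Psmb9 and Psmb10 were not. Psmb8 had levels of 2.37, 2.14 and 2.01 in SHRSP, 2.06, 2.05 and 2.05 in SHR and 1.83, 1.45 and 1.75 in WKY at 6 weeks. At 3 weeks they were 1.58, 1.56 and 1.52 in SHRSP, 1.90, 1.68 and 1.90 in SHR and 1.67, 1.94 and 1.91 in WKY. SHRSP was the lowest strain at 3 weeks, with no overlap, and lay above WKY at 6 weeks. Psmb8 rose by 0.62 ± 0.11 with age in SHRSP (adjusted p = 0.00107), and was at 0.22 ± 0.11 in SHR (adjusted p = 0.156, and 0.0472 with slide as a block) and -0.16 ± 0.11 in WKY (adjusted p = 0.403). At 6 weeks it was higher than WKY by 0.49 ± 0.11 in SHRSP (adjusted p = 0.0055) and by 0.37 ± 0.11 in SHR (adjusted p = 0.0243), where the SHR call was lost after quantile normalization (adjusted p = 0.188) and without slide 5 (adjusted p = 0.248). At 3 weeks SHRSP over WKY was -0.29 ± 0.11 for Psmb8 (adjusted p = 0.0797) and -0.29 ± 0.11 for Psmb9 (adjusted p = 0.0698).

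Psme1 and Psme2, the PA28 subunits that open the proteasome, were called higher in SHR than in WKY at 6 weeks by 0.21 and 0.25. After quantile normalization these were -0.01 and 0.04 (adjusted p = 0.945 and 0.702), so both calls were lost and the estimates were near 0. Of 16 constitutive proteasome genes that were listed, 5 were higher and 0 lower in the same comparison (16.2% and 13% of all genes), with a median of 0.15.

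Of 21 tested interferon response genes, which share regulators with class I genes, 0 were higher and 7 lower in SHRSP over WKY at 3 weeks (median -0.48; 14.8% and 11.4% of all genes). Among the 7 were Ifi44l (-2.68 ± 0.13, adjusted p = 8.08e-09) and Cxcl10 (-1.92 ± 0.31, adjusted p = 0.000372). In the same comparison the class II chains were called higher 4 times of 6 and lower 0 times. With age in SHRSP, 12 of the 21 interferon genes were higher and 0 lower (median 0.60, with 10.5% and 18.4% of all genes). In SHR 1 was higher and 1 lower (15.1% and 14.1%), and in WKY 1 was higher and 0 lower (5.16% and 7.16%).

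Probes that carry the same gene name did not always move together. Of the 65 member probes tested, 46 (70.8%) were called in at least 1 pairwise comparison, and 62.7% of all 23738 tested probes were. For RT1-CE2 the dimmer probe rose with age by 0.82 in SHRSP (adjusted p = 6.34e-05), 0.94 in SHR (adjusted p = 2.79e-05) and 0.38 in WKY (adjusted p = 0.0322). Its bright probe was called in no comparison, but with slide as a block rose with age in SHR (0.53, adjusted p = 0.00109) and SHRSP (0.28, adjusted p = 0.0174) and was higher in SHR than in WKY at 6 weeks (0.36, adjusted p = 0.00454). For RT1-CE5 the dimmer probe rose by 0.62 in SHRSP, 0.99 in SHR and 0.92 in WKY, with levels of -3.66 to -3.08 at 6 weeks and -4.33 to -3.93 at 3 weeks that do not overlap. Its bright probe too was called only with slide as a block, with age in SHR (0.48, adjusted p = 0.00535) and SHRSP (0.27, adjusted p = 0.044) and in SHR over WKY at 6 weeks (0.34, adjusted p = 0.0153). A dim RT1-T18 probe was called lower than WKY at 6 weeks in SHRSP (-1.39 ± 0.40, adjusted p = 0.0203) and SHR (-1.15 ± 0.40, adjusted p = 0.0457), where the WKY levels were -6.30, -5.56 and -4.02.

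**Figure D5:**
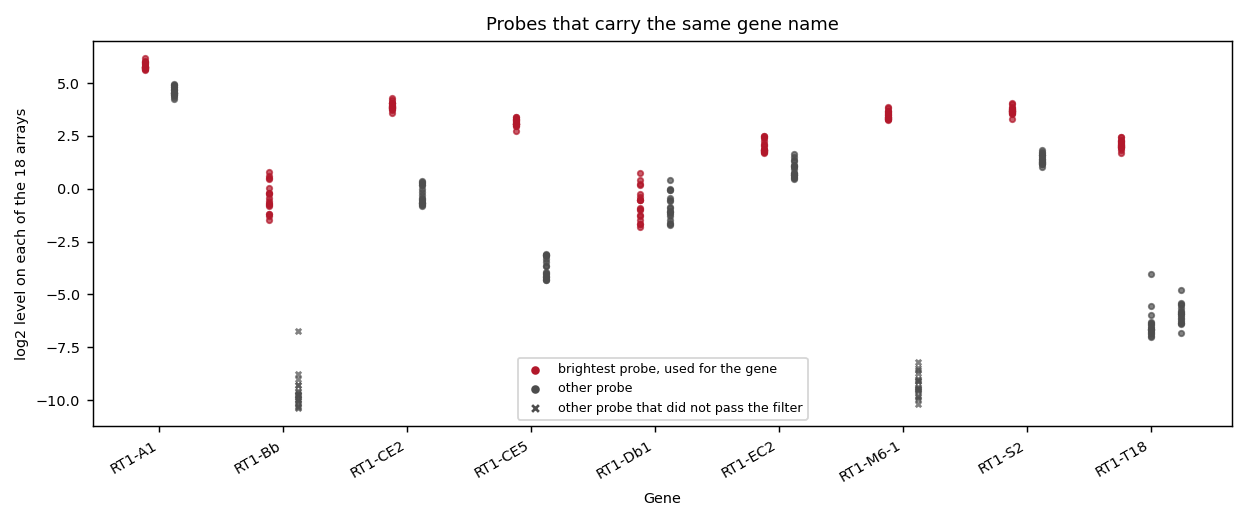
Levels of every probe (log2 signal minus the array's 75th percentile) for the 9 members with several probes, 1 point per array (18 arrays), with the brightest probe in red and others in grey, and crosses for probes that did not pass the filter. The probes of RT1-Db1 span a like range, while the second probes of RT1-Bb and RT1-M6-1 lie below -6.7 on every array.

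RT1-M6-1, a class I-like gene, had 1 probe well above background on all 18 arrays, with levels of 3.28 to 3.85, and another that was not well above background on any. The bright probe is printed with the RT1-S2 and RT1-CE5 probes because all 3 hold the same 26 bases, shown in capitals. The dim probe does not, and the RT1-Bb probe used here is added for a class II gene that had no such match. On rn4 they lie at chr20:1660276-1660335 (RT1-M6-1), chr20:2795080-2795139 (RT1-S2), chr20:3510942-3511001 (RT1-CE5), chr20:1660528-1660587 (RT1-M6-1, dim) and chr20:4732187-4732246 (RT1-Bb). Which part of its gene (exon, intron or UTR) a probe covers was not analysed here.
RT1-M6-1: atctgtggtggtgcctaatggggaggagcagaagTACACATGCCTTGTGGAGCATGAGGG
RT1-S2: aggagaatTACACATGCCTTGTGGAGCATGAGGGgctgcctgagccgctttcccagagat
RT1-CE5: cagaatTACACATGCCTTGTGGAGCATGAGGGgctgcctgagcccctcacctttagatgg
RT1-M6-1 dim: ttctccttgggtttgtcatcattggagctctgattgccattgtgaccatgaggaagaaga
RT1-Bb: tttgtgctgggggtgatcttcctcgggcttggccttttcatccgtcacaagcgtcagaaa

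Such likeness was common in the class I family. Of 52 RT1 probes, 18 pairs were at least 80% identical over at least 25 identical bases, and they involved 15 probes, 12 of them the probe used for its gene. Among these pairs were the second RT1-A1 probe and RT1-CE11, with 53 of 60 bases, RT1-S2 and RT1-CE5, with 51 of 58, and RT1-Cl and RT1-CE14, with 48 of 55. Counts over these class I genes can therefore hold the same transcript more than once, and a level given for one of them is uncertain to that extent. The probes of 34 RT1 members lie on chromosome 20 of rn4, 6 lie on its unplaced sequence and 2 have no position in the files.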

How the data were processed

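Total RNA of adrenal glands was hybridised to 18 one-colour (Cy3) rat arrays of 44254 spots, with 60-base probes. The deposited values are spot intensity readings from Agilent Feature Extraction 10.5.1.1, spatially detrended per the file headers, whose probe annotation names rn4. The intensities in the authors' deposited series table equalled the processed signals used here (largest difference 0). The series table as an alternative therefore repeats the same input. Here log2 of the processed signal minus the array's 75th percentile was taken, outlier spots left out, spots averaged per probe and the brightest probe kept per gene name. A gene was tested (20825 were) where every array of 1 or more groups had it well above background, with limma 3.58.1 (R 4.3.3), 6 group means, 9 pairwise comparisons and 3 comparisons of age changes, with Benjamini-Hochberg adjustment. A gene that lacked a value on an array (186 genes) was fitted without that array. The number of arrays limits the precision, and whether replicates are single animals was not stated. A p-value sets a difference against the spread between these samples, pooled over the 6 groups and drawn toward that of other genes.

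Members and lists were chosen with earlier results of these data known. Every member could be named with its level. Differences were named for up to 6 called members with the largest rise and fall in a comparison, for B2m, Cd74, Ciita, RT1-Da, RT1-Db1, RT1-Ba, RT1-Bb, Tap1, Tap2, Psmb8, Psmb9 and Ctss whatever the result, for members called alike in all 4 comparisons with WKY, and for up to 3 genes per list. Other members' values were chosen after they were seen. Lists covered macrophage, dendritic, B and T cells, adrenal, adipose, liver and kidney, interferon response, constitutive proteasome and other pathway genes. Alternatives were quantile normalization, normexp, other filters, the mean of probes, slide or replicate number as a block, only the groups compared, the series table and leaving out each array. Leaving out slide 5 was chosen after seeing the data. The arrays lay on 5 slides and were scanned on 3 days. The correlation of deviations of same-numbered arrays was above 0.1 in every pair for SHR and WKY at 3 weeks alone (0.101 to 0.362), where they share slides. In SHRSP and SHR it was positive in every pair, at 0.0418 to 0.299 at 3 weeks and 0.019 to 0.578 at 6 weeks. The lowest pair at each age lay on different slides, and the other pairs shared a slide. One gene of the lists and 1 pair of probe sequences are not reported here.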

Additional observations from a re-analysis of the deposited data

Results flagged for a closer look

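The age change (6 over 3 weeks) differed between strains, by a test of the difference itself in the limma fit, for 16 combinations of member and strain pair. SHRSP against SHR gave -2.20 ± 0.28 for Ciita (adjusted p = 0.000171), -1.40 ± 0.27 for RT1-Db1 (adjusted p = 0.00396), -1.28 ± 0.26 for RT1-Da (adjusted p = 0.00629), -1.25 ± 0.30 for RT1-Bb (adjusted p = 0.016) and -1.21 ± 0.28 for Cd74 (adjusted p = 0.0138), and also -0.85 ± 0.23 for Ctss (adjusted p = 0.028) and -0.62 ± 0.18 for RT1-T24-2 (adjusted p = 0.0398). Without slide 5 Ciita was at -1.79 (adjusted p = 0.00954), and the other 6 were not called, at -1.07 for RT1-Db1, -0.96 for RT1-Da, -0.89 for RT1-Bb, -1 for Cd74, -0.56 for Ctss and -0.73 for RT1-T24-2 (adjusted p of 0.0561 to 0.188). Such fits have 1 SHR array of 6 weeks, so a lost call does not by itself show a smaller difference. The estimates without slide 5 were nearer 0 for each of these genes except RT1-T24-2.

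SHRSP against WKY gave -1.35 ± 0.28 for Ciita (adjusted p = 0.00788), 0.78 ± 0.16 for Psmb8 (adjusted p = 0.00782) and -0.38 ± 0.11 for RT1-M3-1 (adjusted p = 0.0408). The first pair stayed called without slide 5, and RT1-M3-1 did not (adjusted p = 0.0686), nor with slide as a block (-0.35, adjusted p = 0.0851).

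SHR against WKY gave 1.03 ± 0.27 for RT1-Db1 (adjusted p = 0.0395), 0.68 ± 0.18 for RT1-T24-2 (adjusted p = 0.0431), 0.50 ± 0.13 for RT1-EC2 (adjusted p = 0.0354) and 0.40 ± 0.09 for Ifi30 (adjusted p = 0.0207). It gave -0.56 ± 0.15 for Rfxap (adjusted p = 0.0461) and -1.42 ± 0.35 for RT1-DOb (adjusted p = 0.0333). The second probes of RT1-Db1 (0.85, limma adjusted p = 0.0834) and RT1-EC2 (0.35, limma adjusted p = 0.254) were not called. Of 12 fits that left out 1 array, 9 each lost the call of RT1-Db1, RT1-EC2 and RT1-DOb. The calls of RT1-T24-2 and Rfxap were lost in 10 each, and that of Ifi30 in 1. Without slide 5 none of these 6 was called, at 0.69 for RT1-Db1, 0.72 for RT1-T24-2, 0.40 for RT1-EC2, 0.44 for Ifi30, -0.64 for Rfxap and -1.52 for RT1-DOb (adjusted p of 0.0636 to 0.243).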

How the results depend on the processing

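Of 134 called differences of members, 93 kept their call after quantile normalization, 39 lost it with the same sign, and 2 lost it with a change of sign. Those 2 were Psme1 in SHR over WKY at 6 weeks (-0.00957, limma adjusted p = 0.945) and in the SHR age change (-0.0272, adjusted p = 0.817), with estimates near 0. Fits of only the groups compared kept 75, those without slide 5, which have 1 SHR array of 6 weeks, kept 83, no filter 112, slide as a block 125, normexp 125 and the mean of probes 131. Counts of called members within 1.5 times the main one are not repeated. SHR over WKY at 6 weeks (24) gave 12 after quantile normalization, 10 with only the groups compared and 8 without slide 5. SHRSP over SHR at 6 weeks (7) gave 4, 1 and 2 under the same settings. Only the groups compared gave 3 for SHRSP over WKY at 6 weeks (12), 2 for the WKY age change (7) and 8 for the SHRSP age change (16). The WKY age change gave 14 with slide as a block and 11 without slide 5. The difference in age change of SHR and WKY (6) gave 2 after quantile normalization, 1 without the filter, 10 with slide as a block, 3 with only the groups compared and 1 without slide 5, and that of SHRSP and SHR (7) gave 2 without slide 5. Leaving out each array gave 4 to 7 for SHR over WKY at 3 weeks (4 without replicate 2 of WKY), 14 to 22 at 6 weeks (14 without replicate 3 of SHR) and 2 to 10 for SHRSP over SHR at 6 weeks (2 without replicate 3 of SHR or replicate 2 or 3 of SHRSP). It gave 2 to 8 for the WKY and 8 to 14 for the SHRSP age change, and 0 to 5 (SHR minus WKY; 0 without replicate 2 of WKY at 3 weeks) and 2 to 5 (SHRSP minus WKY) for differences in age change. With the replicate number as a block, SHR over WKY at 3 weeks, the comparison where numbers pair the arrays, gave 7 called members. In the other comparisons not every pair of arrays correlates above 0.1, though some pairs share a slide, and the block gave 14 and 6 for SHRSP over WKY and over SHR at 3 weeks, 24, 11 and 8 for the 3 comparisons at 6 weeks (SHR over WKY, SHRSP over WKY, SHRSP over SHR), 7, 26 and 14 for the age changes in WKY, SHR and SHRSP, and 5, 2 and 8 for their differences. Except where stated, the cause was not tested.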
